A study of Homo sapiens with 18 samples.

Results

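The loci of 8 aldehyde dehydrogenase genes were examined for open chromatin in 18 ATAC-seq libraries of PC9, a human lung adenocarcinoma line driven by mutant EGFR. ATAC-seq marks open DNA by the places where a transposase can insert sequencing adapters. The members were all regions with a deposited peak within 50 kb of the hg19 gene bodies of ALDH1A1, ALDH1A2, ALDH1A3, ALDH1B1, ALDH2, ALDH3A1, ALDH3A2 and ALDH7A1. A region is a peak, or a stretch of peaks from any of the 18 libraries that share at least 1 bp. Of the 79483 regions 40 met the rule, 3 of them within reach of both ALDH3A1 and ALDH3A2. The rule used positions only, not measured values.

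Each of the 6 groups held 3 libraries. DTP (drug-tolerant persister) cells were PC9 cells that survived 8 days in 1 µM of the EGFR inhibitor erlotinib, and they were set against unsorted PC9 cells labelled DMSO, the drug's solvent. For the other groups PC9 cells received 1 µM erlotinib or DMSO for 12 h. They were then sorted with Aldefluor, a fluorescent assay of aldehyde dehydrogenase (ALDH) activity. This gave ALDH-high erlotinib, ALDH-low erlotinib, ALDH-high DMSO and ALDH-low DMSO cells. All cells came from the same line and were frozen and thawed before tagmentation. No source used here gives the cutoffs of the sort.

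Aldehyde dehydrogenases oxidise reactive aldehydes to carboxylic acids with NAD+ or NADP+. The ALDH1A enzymes make retinoic acid from retinal, and members of the ALDH1A group are the ones most often linked to Aldefluor activity and to stem-like tumour cells. The other enzymes clear aldehydes that arise from ethanol, lipid peroxidation, fatty alcohols and lysine breakdown. Open chromatin at a gene start is common at genes in use, but it does not measure transcript or enzyme, and neither was measured here.

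DTP lists held 42204 to 45241 peaks, PC9 lists 39394 to 41831, ALDH-high erlotinib lists 34317 to 40710, ALDH-high DMSO lists 30336 to 32819, ALDH-low erlotinib lists 32583 to 40670 and ALDH-low DMSO lists 26225 to 26438. Erlotinib lists were thus longer than the DMSO lists of the same fraction, and read depth is unknown. A missing peak was not called, which does not show closed chromatin, and a site open in few cells cannot be told apart from one weakly open in many. Peak scores, the authors' own, are given as a percentile: the share of peaks in the library's list that score no higher. Percentiles are compared between groups only in lists of equal size, the 26225 best peaks of each library, and as a description.

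Promoter base composition varied widely among the genes. The 250 bases before the RefSeq gene start (GRCh38.p14) are printed for the 2 genes with no peak at their start, ALDH1A1 and ALDH1A2, and for 2 that had one, ALDH1A3 and ALDH7A1. Capitals mark the GC box GGGCGG and the CCAAT box on either strand.
ALDH1A1: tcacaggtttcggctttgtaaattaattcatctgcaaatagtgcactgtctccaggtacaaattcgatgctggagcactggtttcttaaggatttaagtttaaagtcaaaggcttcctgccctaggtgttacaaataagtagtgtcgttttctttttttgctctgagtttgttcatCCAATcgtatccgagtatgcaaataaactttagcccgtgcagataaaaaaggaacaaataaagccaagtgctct
ALDH1A2: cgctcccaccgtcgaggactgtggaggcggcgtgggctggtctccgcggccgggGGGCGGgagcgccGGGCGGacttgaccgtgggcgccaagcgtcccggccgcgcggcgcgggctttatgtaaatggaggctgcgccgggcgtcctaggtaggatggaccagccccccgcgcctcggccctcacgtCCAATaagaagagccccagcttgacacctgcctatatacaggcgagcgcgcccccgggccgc
ALDH1A3: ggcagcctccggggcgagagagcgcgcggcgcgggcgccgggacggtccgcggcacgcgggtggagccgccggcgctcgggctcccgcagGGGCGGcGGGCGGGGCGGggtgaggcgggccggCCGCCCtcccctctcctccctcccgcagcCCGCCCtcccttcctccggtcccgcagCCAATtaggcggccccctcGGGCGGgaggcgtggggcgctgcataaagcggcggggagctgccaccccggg
ALDH7A1: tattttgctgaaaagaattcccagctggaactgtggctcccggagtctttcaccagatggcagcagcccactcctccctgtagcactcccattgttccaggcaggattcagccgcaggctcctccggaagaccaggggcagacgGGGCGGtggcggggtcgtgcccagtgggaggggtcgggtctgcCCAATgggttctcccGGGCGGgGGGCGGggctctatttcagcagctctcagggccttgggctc
These windows lie at chr9:72953054-72953303 (minus strand), chr15:58065712-58065961 (minus strand), chr15:100879581-100879830 (plus strand) and chr5:126595220-126595469 (minus strand). ALDH1A1 had 38.4% G and C, against a median of 58% over the 35114 windows of the table. ALDH1A3 had 82.4%, ALDH1A2 72.8% and ALDH7A1 64.0%, so the window of ALDH1A2, a gene without a peak at its start, was richer in G and C than that of ALDH7A1, which had one. The GC box, present in 42.6% of all windows, matched 6 times in ALDH1A3, 3 times in ALDH7A1, 2 times in ALDH1A2 and not at all in ALDH1A1. The CCAAT box, present in 32.0% of windows, matched 1 time in each of the 4. No match was found in these windows to TATAAA (10.7% of windows), to the AP-1 motif TGANTCA (6.57%), to the antioxidant response element TGACNNNGC (10.9%) or to the E-box CACGTG (6.35%). The windows of ALDH1B1 (70.4% G and C) and ALDH3A2 (55.6%) likewise held none of those, and ALDH1B1 had 2 GC boxes where ALDH3A2 had none. Overlapping matches of 1 motif were counted separately on both strands, and a match is letters only, not a bound site.

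Over all loci, 8 of the 40 members (20%) were held by all 18 libraries, 11 (27.5%) by a single library and 21 by 2 to 17. For all 79483 regions the shares were 17.7% and 21.2%. The 11 single-library members were weak, at percentiles from 4.39 to 34.9, and lay in ALDH-low erlotinib (5), ALDH-high erlotinib (2), DTP (1) and PC9 (3) libraries and in no sorted DMSO library. ALDH-low erlotinib libraries thus had 45.5% of single-library members, against 18.4% of all single-library regions. For ALDH-high erlotinib the shares were 18.2% and 18.8%, for DTP 9.09% and 28.4%, and for PC9 27.3% and 18.1%. ALDH-high DMSO libraries had 9.84% and ALDH-low DMSO libraries 6.41% of all such regions. These shares were not tested. DTP libraries held 21, 19 and 22 members and PC9 libraries 18, 16 and 20. ALDH-high erlotinib libraries held 19, 17 and 23, ALDH-high DMSO libraries 15, 14 and 13, ALDH-low erlotinib libraries 18, 22 and 18, and ALDH-low DMSO libraries 13 each. The shares, 32.5% to 57.5% of members, were close to the 32.7% to 56.3% of all regions held by a library, and the lowest, 32.5%, was that of all 3 ALDH-low DMSO libraries and ALDH-high DMSO library c. Of the 8 constant members 4 overlapped a gene body, at the starts of ALDH1B1, ALDH3A2 and ALDH7A1 and at the 3' end of ALDH1A3. The other 4 lay outside the genes, and a peak there need not belong to the ALDH gene. On the same side, the next genes in RefSeq order are MAPKAPK5 for ALDH2, ULK2 for ALDH3A1 and PHAX for ALDH7A1, whose hg19 positions were not used here.

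**Figure D1:**
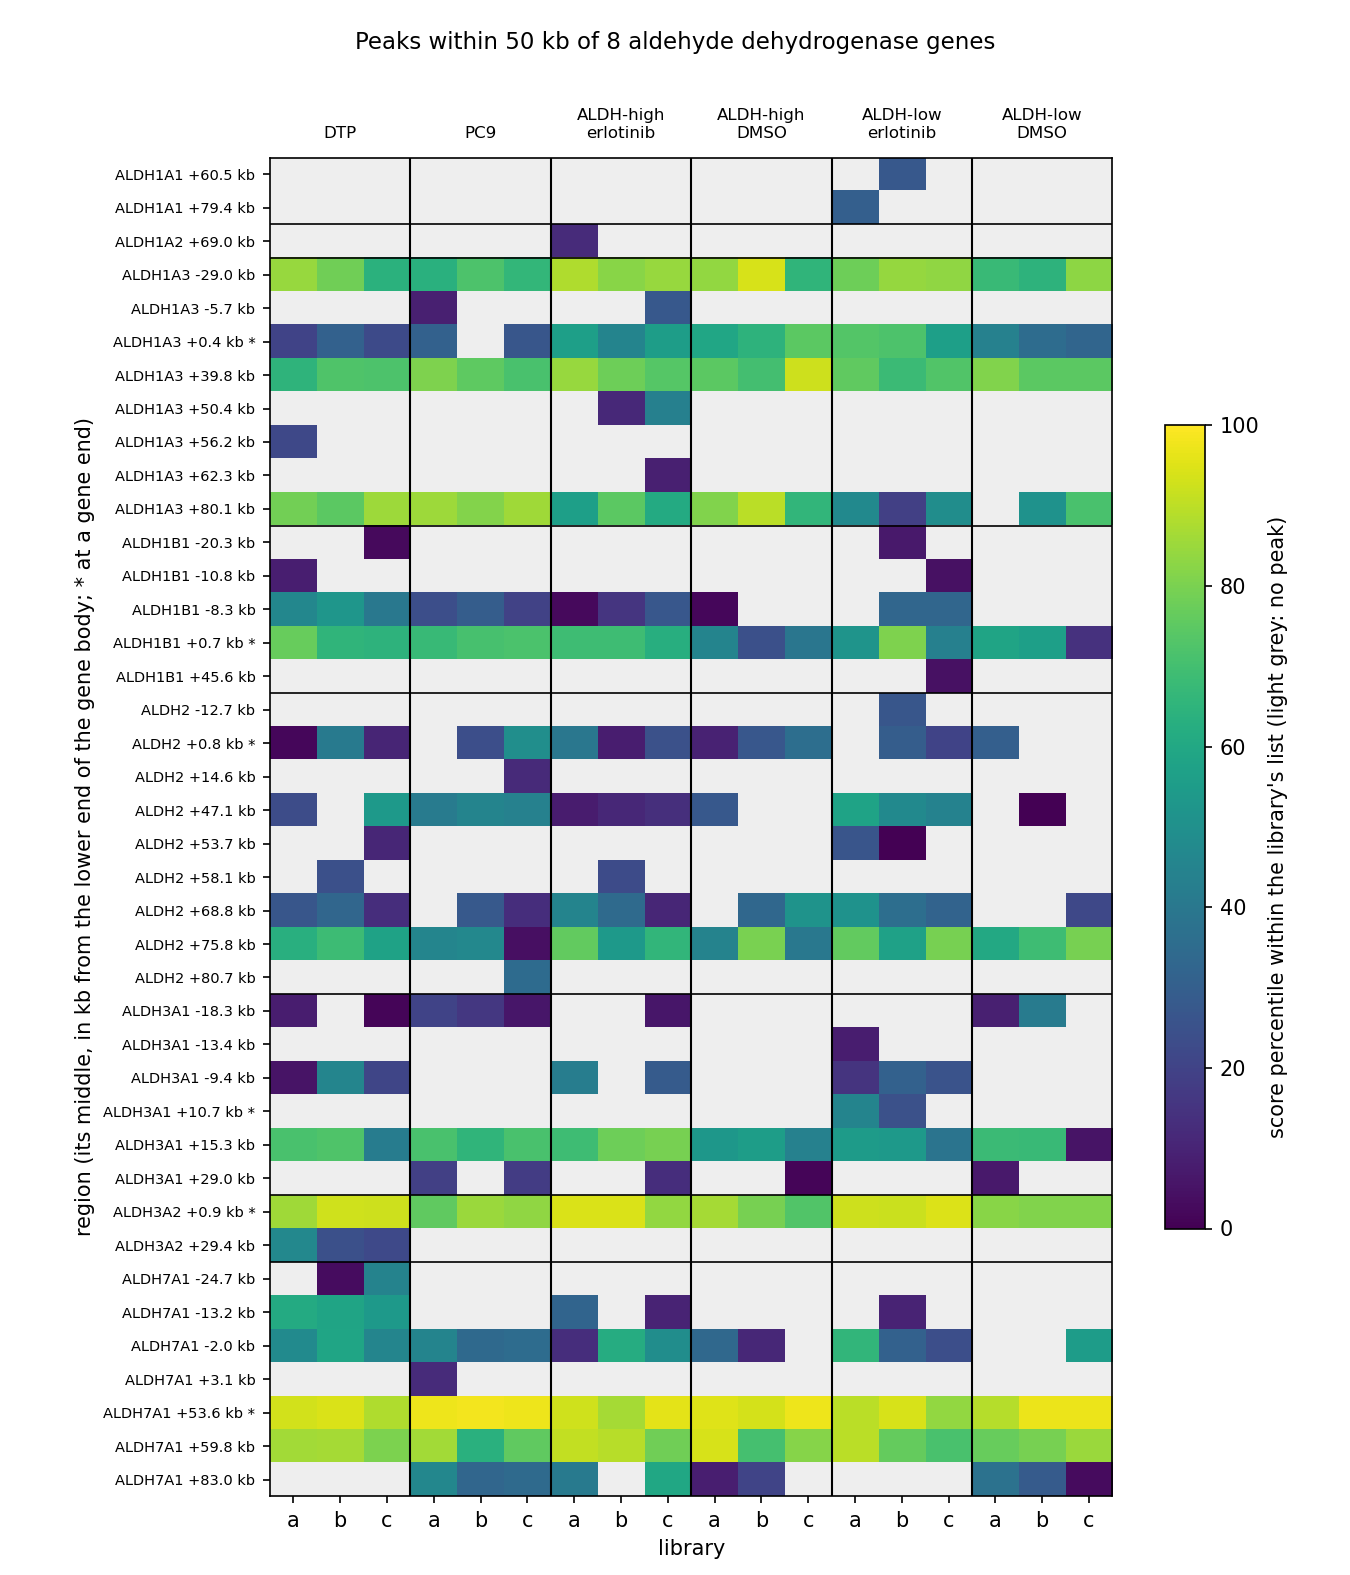
All 40 member regions (rows, by distance of their middle in kb from the lower-coordinate end of the gene body) in the 18 libraries (columns), coloured by score percentile within the library's list, light grey where no peak was called. An asterisk marks regions at a gene end, and the 3 regions shared by ALDH3A1 and ALDH3A2 are drawn under ALDH3A1. The 8 regions in all 18 libraries form unbroken rows, and the rows of ALDH1A1 and ALDH1A2 are nearly empty.

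The retinoic acid genes ALDH1A1 and ALDH1A2 had no shared peak in any group. ALDH1A1, the isozyme most often named with Aldefluor, had no peak in its gene body or at its start in any of the 18 libraries, although 6 libraries were sorted as ALDH-high. Its 153 kb window held 2 regions, each called in a single library of the ALDH-low erlotinib group: chromosome 9, 75575186 to 75575783, in library b at percentile 27.5, and chromosome 9, 75594004 to 75594735, in library a at percentile 30.2. In the 213 kb window of ALDH1A2 the only region, chromosome 15, 58313660 to 58314327, lay inside the gene body and was called in ALDH-high erlotinib library a alone, at percentile 12.4.

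ALDH1A3, another retinal dehydrogenase, had 8 regions within its 138 kb window. Its 3 strongest regions did not lie on its start. The top one, chromosome 15, 101388858 to 101391189, lay 27.8 kb upstream and was held by all 18 libraries, at percentiles from 63.3 in PC9 library a to 94.1 in ALDH-high DMSO library b. A second, chromosome 15, 101456798 to 101460861, began at the 3' end of the gene body and lay mostly beyond it. It was also held by all 18, at percentiles from 65.0 to 92.3. In most libraries the peak itself began just past that end, which is known to 1 kb only. Another, chromosome 15, 101498059 to 101500093, lay 41.1 kb downstream and was held by 17 libraries, all except ALDH-low DMSO library a. The next gene on that side in RefSeq order is LRRK1, so neither of these regions need belong to ALDH1A3.

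The ALDH1A3 start region, chromosome 15, 101417439 to 101421295, was held by 17 libraries, all except PC9 library b. It joined an upstream peak, between 1.5 and 0.37 kb before the start, and a peak over or just after the start. The start is known to 1 kb only, so these positions relative to it are approximate. The upstream peak was called separately in 4 libraries, DTP a and c, PC9 c and ALDH-high DMSO c. The other peak was called in 16 libraries, including all 12 of sorted cells. The peak over or just after the start stood at percentiles 31.1 and 22.6 in DTP libraries b and c, and at 31.1 and 10.9 in PC9 libraries a and c. DTP library a had only the upstream peak, at percentile 20.1. Sorted libraries had the region at percentiles from 32.8 to 74.8, in lists of other lengths, so the levels are not compared with those of DTP and PC9.

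**Figure D2:**
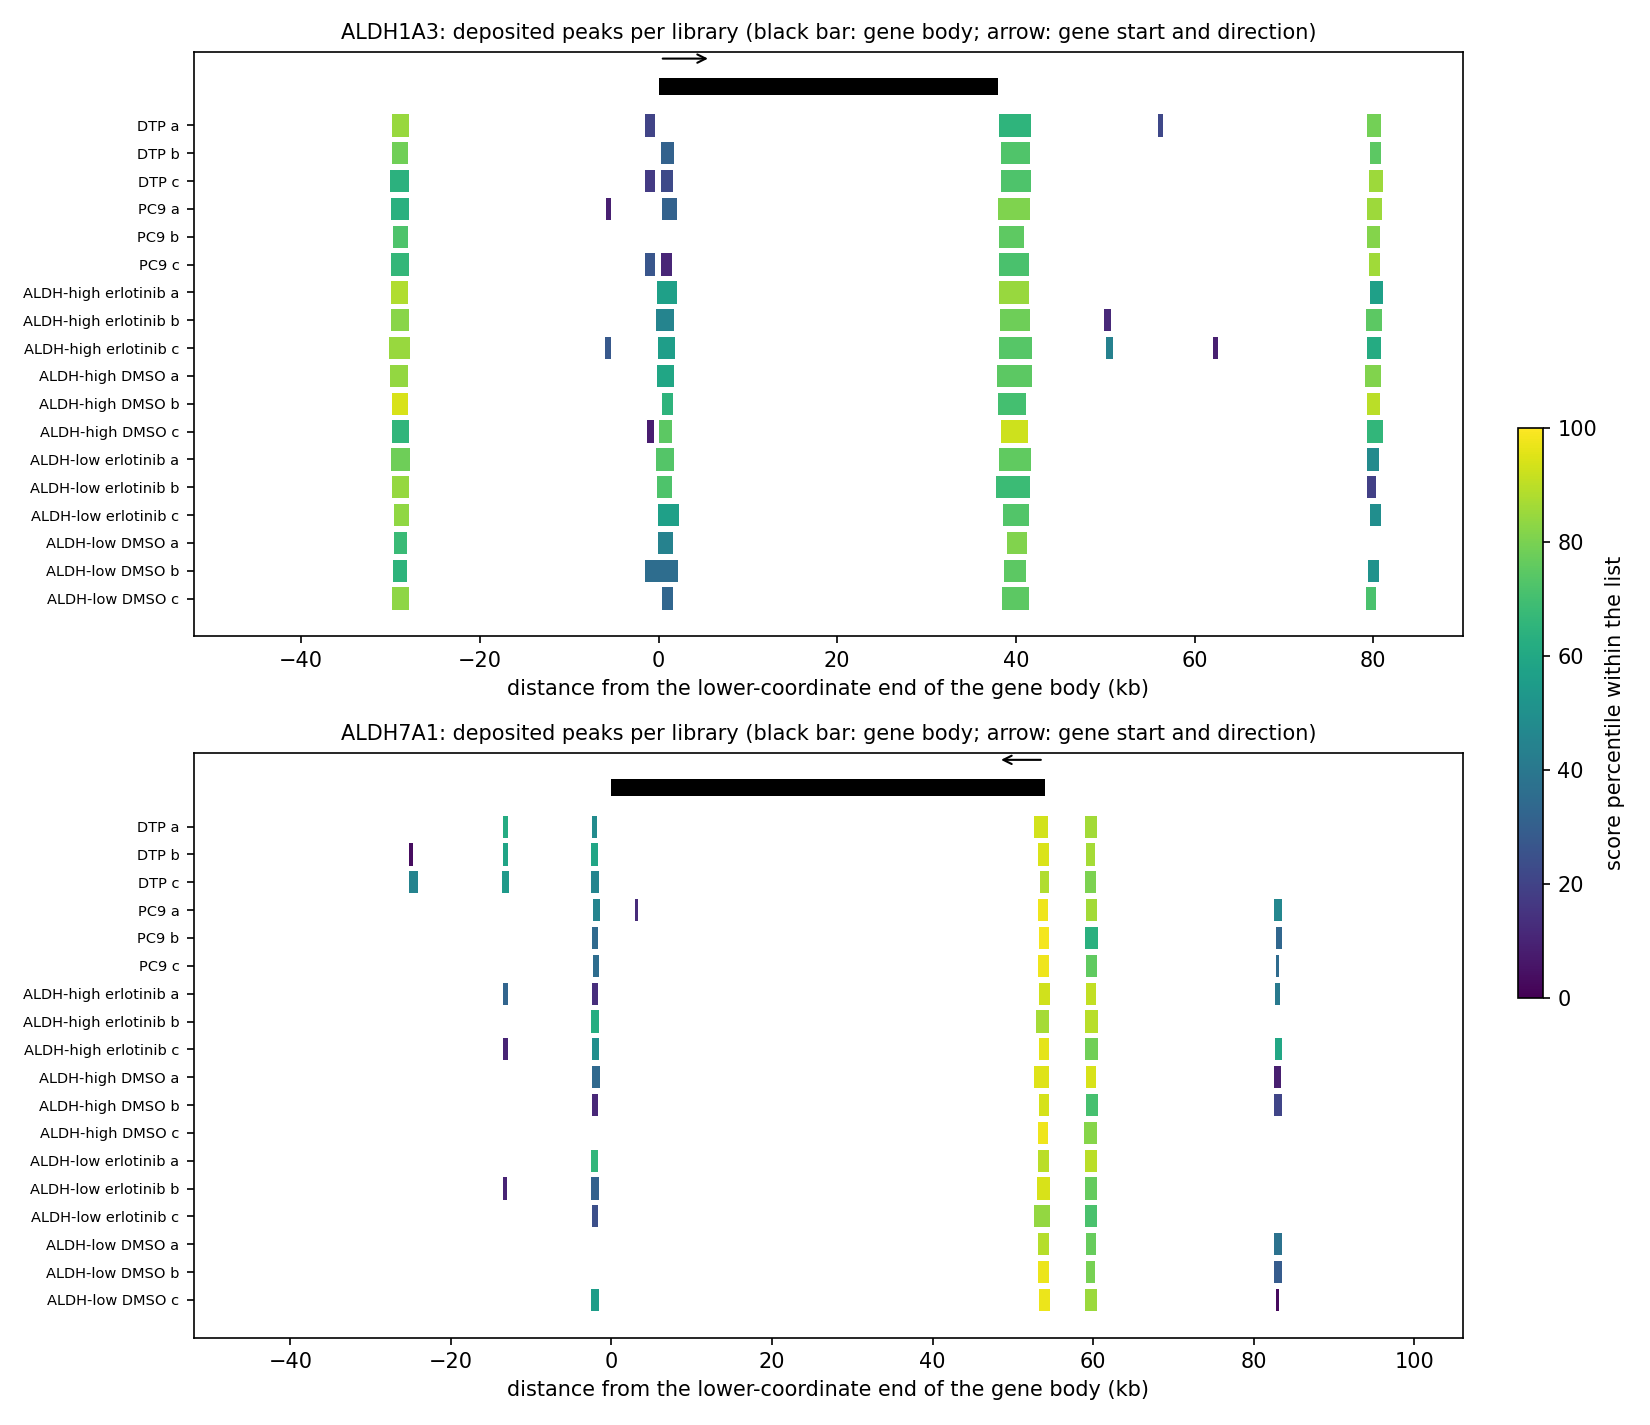
Peaks of each library around ALDH1A3 and ALDH7A1, 1 row per library, by distance in kb from the lower-coordinate end of the gene body, coloured by score percentile within the library's list. At ALDH1A3 the peaks 27.8 kb upstream and at the 3' end were in all 18 libraries, while at the start PC9 library b had none and DTP library a only the upstream peak. At ALDH7A1 the start and the region 4.9 kb upstream were in all 18, and the outermost upstream region was in no DTP or ALDH-low erlotinib library.

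In lists of equal size the ALDH1A3 start region ranked in opposite directions with erlotinib in the 2 fractions. ALDH-high erlotinib libraries a, b and c had it at percentiles 32.3, 28.0 and 31.3, and ALDH-high DMSO libraries at 48.7, 59.0 and 70.8. ALDH-low erlotinib libraries had it at 58.6, 60.9 and 45.9, and ALDH-low DMSO libraries at 43.4, 35.4 and 32.4. After erlotinib the region thus ranked lower in all ALDH-high libraries and higher in all ALDH-low libraries than under DMSO, with means 28.9 points apart in ALDH-high (30.6 with erlotinib, 59.5 with DMSO) and 18.1 points apart in ALDH-low (55.1 with erlotinib, 37.1 with DMSO). Within the treatments, ALDH-high stood 24.6 points below ALDH-low after erlotinib and 22.4 points above it under DMSO. These 4 differences share libraries. The same crossing was seen at 0.297% of the 12774 regions in all 12 equal lists (38 regions) and the opposite crossing at 0.251%, and at 1 of the 9 members in all 12 lists. The difference of the 2 drug effects was not tested, since scores serve here only as a description. None of the 3 DTP and none of the 3 PC9 lists of equal size held the region. ALDH-high DMSO and ALDH-low erlotinib libraries overlapped. Bases covered in the region were 2096 ± 159 bp in ALDH-high erlotinib and 1831 ± 613 bp in ALDH-high DMSO libraries, and 2039 ± 353 bp in ALDH-low erlotinib and 2247 ± 1290 bp in ALDH-low DMSO libraries (mean ± SD, n = 3), with overlap in both fractions and no test within a fraction.

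**Figure D3:**
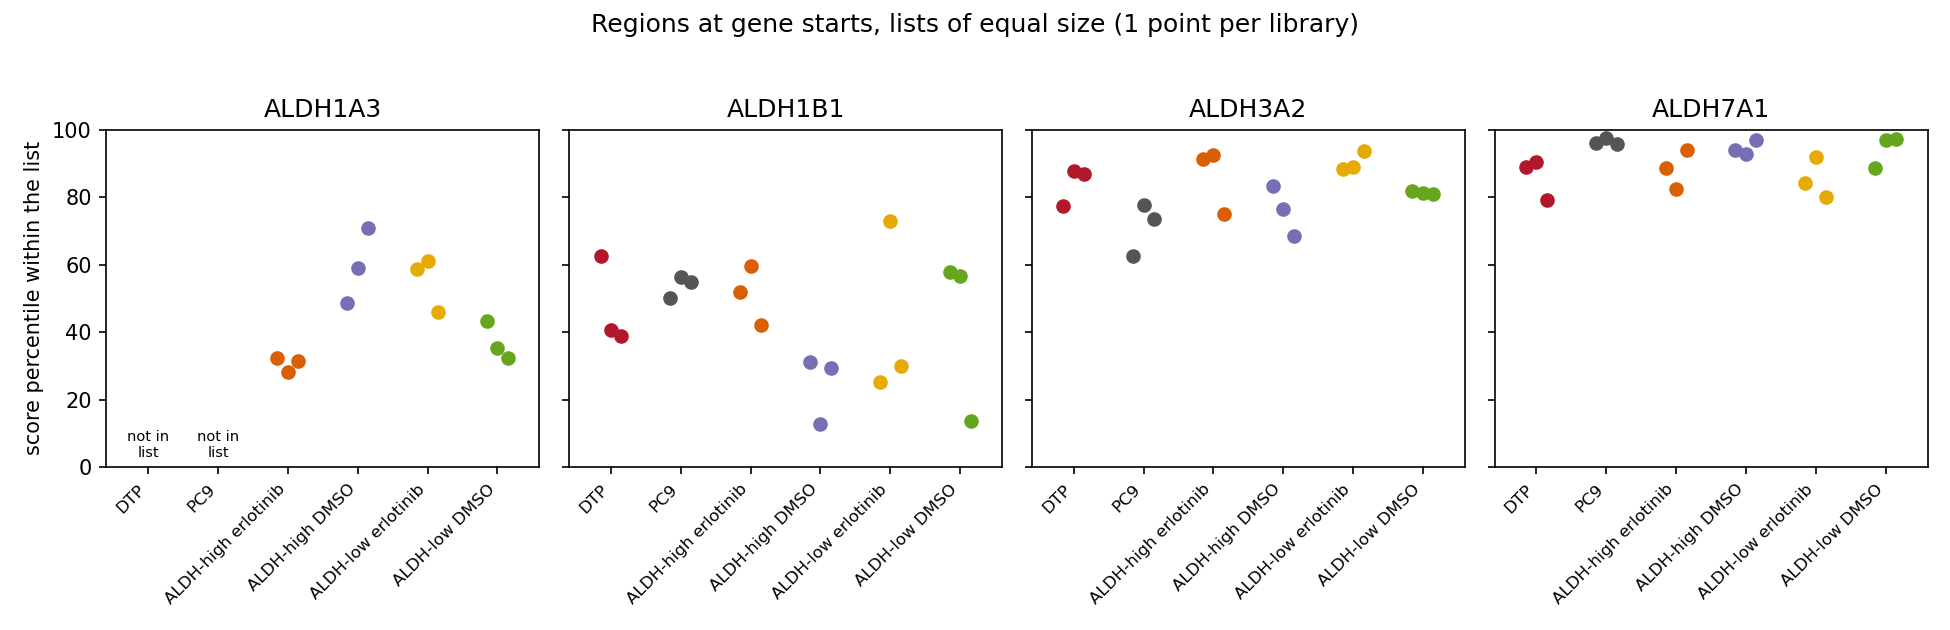
Score percentile of the region at the start of 4 genes in lists of equal size, 1 point per library, by group. The ALDH1A3 start lies at 28.0 to 32.3 in ALDH-high erlotinib and at 48.7 to 70.8 in ALDH-high DMSO libraries, and in the reverse order in ALDH-low libraries. DTP and PC9 libraries did not hold it among their 26225 best peaks.

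Between the sorted fractions ALDH1A3 was the locus nearest to a difference in covered bases. ALDH-high erlotinib libraries had 8908, 9839 and 11459 bp under peaks, and ALDH-low erlotinib libraries 9152, 8339 and 8235 bp. Under DMSO the ALDH-high libraries had 9705, 7541 and 9245 bp and the ALDH-low libraries 5435, 9018 and 7245 bp, so the fractions overlapped under both treatments. Over both treatments the difference was 1546 bp (exact permutation within treatments, p = 0.05, adjusted p = 0.556 over all 150 kb tiles of the genome and the 8 loci). Among tiles, 7.37% were higher in ALDH-high at an unadjusted p under 0.05 and none after adjustment, so the locus did not pass. No locus was lower in ALDH-high at an unadjusted p under 0.05, against 0.657% of tiles. Its region 41.1 kb downstream, singled out after its values were seen, had 1558 ± 139 bp in ALDH-high erlotinib and 1196 ± 166 bp in ALDH-low erlotinib libraries, and 1692 ± 263 bp in ALDH-high DMSO and 785 ± 683 bp in ALDH-low DMSO libraries (mean ± SD, n = 3). The difference, 634.5 bp, had an exact permutation p of 0.005, the smallest possible, and an adjusted p of 0.523. Of 31877 regions so tested, 5.68% were higher in ALDH-high at an unadjusted p under 0.05, and 1 of 16 members was.

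No member region separated the fractions by presence of a peak. Under erlotinib, 0 of the 34 members held by at least 1 of the 6 libraries were in all 3 ALDH-high and no ALDH-low libraries, and 0 were the reverse, against 0.893% and 0.446% of all regions. Under DMSO, 0 of 18 were separated in either direction, against 1.28% and 0.14% of all regions. At these rates fewer than 1 member would be separated, so a count of 0 says little about the loci. Over both treatments none of the members could reach a p under 0.1, so their presence was not testable between fractions. Among the 6377 regions that could, 1.57% were higher and 0.125% lower in ALDH-high at an unadjusted exact p under 0.05 and none passed adjustment.

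ALDH2 and ALDH1B1, whose mitochondrial enzymes clear acetaldehyde and related short aldehydes, had more bases under peaks after erlotinib in sorted cells. At ALDH2, the ALDH-high erlotinib libraries had 4171, 4557 and 3939 bp, and the ALDH-high DMSO libraries 2723, 3263 and 2982 bp. The ALDH-low erlotinib libraries had 4278, 4828 and 4844 bp, and the ALDH-low DMSO libraries 2270, 2098 and 2176 bp. The groups did not overlap in either fraction. Unsorted cells did overlap, with 3410, 3886 and 4082 bp in DTP libraries and 1725, 3217 and 5004 bp in PC9 libraries. Over both fractions the difference was 1851 bp (exact permutation within fractions, p = 0.005, the smallest possible, adjusted p = 0.0333). This passed, as did 20.2% of all tiles, which were higher with erlotinib at an adjusted p under 0.05 (34.7% at an unadjusted p). No locus was lower at either threshold, against 0.424% of tiles (1.29% unadjusted). With lists of equal size the same exact permutation test gave 645 bp (adjusted p = 0.532), and with scores of at least 100 it gave 1137 bp (adjusted p = 0.147), so the call rests on the lists as deposited, which were longer with erlotinib.

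At ALDH2 the strongest region was not the start. It lay 30.7 kb beyond the gene body (chromosome 12, 112278699 to 112280938), was held by all 18 libraries, and stood at percentile 4.10 in PC9 library c and at 39.9 or above in the others. The region at the lower end of the gene body (chromosome 12, 112203919 to 112205682) was held by 14 libraries, at percentiles from 1.65 in DTP library a to 49.4 in PC9 library c. All 3 libraries of each of ALDH-high erlotinib, ALDH-high DMSO and DTP held it, as did 2 of ALDH-low erlotinib, 2 of PC9 and 1 of ALDH-low DMSO. A pair of regions beyond the gene, singled out after their values were seen, were called in all 6 sorted erlotinib libraries. The one at chromosome 12, 112250571 to 112251544, was in 2 of 6 sorted DMSO libraries (exact permutation adjusted p = 0.169). The one at chromosome 12, 112272210 to 112273357, was in 3 of 6. In unsorted cells the first was in 2 DTP and all 3 PC9 libraries, and the second in all 3 DTP and 2 PC9 libraries.

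The erlotinib effect at ALDH2 was 1233 bp in ALDH-high and 2469 bp in ALDH-low cells. The effect in ALDH-high minus that in ALDH-low was -1236 bp (exact permutation of fraction labels within treatments, p = 0.01, adjusted p = 1.0), and 2.83% of tiles had a difference in that direction at an unadjusted p under 0.05 (0.749% in the other direction). Part of it lay in the DMSO cells, where ALDH-high libraries had 808 bp more than ALDH-low libraries without overlap, as did 13.6% of tiles. No locus was lower in all ALDH-high DMSO libraries (1.18% of tiles), and after erlotinib none separated the fractions (7.14% of tiles higher and 3.57% lower in ALDH-high).

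ALDH1B1 is a gene of 7 kb with 5 regions in its window. ALDH-high erlotinib libraries had 1411, 2061 and 1762 bp under peaks, and ALDH-high DMSO libraries 1506, 806 and 823 bp. ALDH-low erlotinib libraries had 997, 1924 and 3177 bp, and ALDH-low DMSO libraries 872, 759 and 604 bp. The groups overlapped in ALDH-high and not in ALDH-low cells. Over both fractions the difference was 994 bp (exact permutation p = 0.01, adjusted p = 0.0485), just past the threshold. With any 1 of 10 of the 12 libraries left out it no longer passed the exact permutation test (adjusted p up to 0.128), and in lists of equal size the difference was 399 bp (adjusted p = 0.0993).

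The ALDH1B1 start region (chromosome 9, 38392083 to 38393298) was held by all 18 libraries, with its lowest percentile, 14.3, in ALDH-low DMSO library c and its highest, 80.5, in ALDH-low erlotinib library b. Among equally long lists it stood at 51.9, 59.6 and 42.2 in ALDH-high erlotinib libraries, against 31.1, 12.7 and 29.4 in ALDH-high DMSO libraries, without overlap. In ALDH-low cells it stood at 25.2, 72.9 and 30.1 with erlotinib and at 57.9, 56.5 and 13.8 with DMSO, which overlap. Of the 10 members in all 6 equal lists of ALDH-high cells 2 ranked higher with erlotinib without overlap, against 12% of all such regions, and 1 lower, against 11.9%. The region also covered 181 bp more with erlotinib over both fractions (exact permutation p = 0.025, adjusted p = 0.103). A region 7.8 kb upstream (chromosome 9, 38383151 to 38384219) was in all 3 DTP and all 3 PC9 libraries. Of sorted libraries it was in 5 of 6 with erlotinib and 1 of 6 with DMSO (exact conditional permutation p = 0.08, adjusted p = 0.169). It had 501 bp more covered with erlotinib (exact permutation p = 0.04, adjusted p = 0.134). Of 16 members tested for covered bases, these 2 were higher with erlotinib at an unadjusted p under 0.05 and 0 were lower, against 27.9% and 3.31% of 31877 regions.

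**Figure D4:**
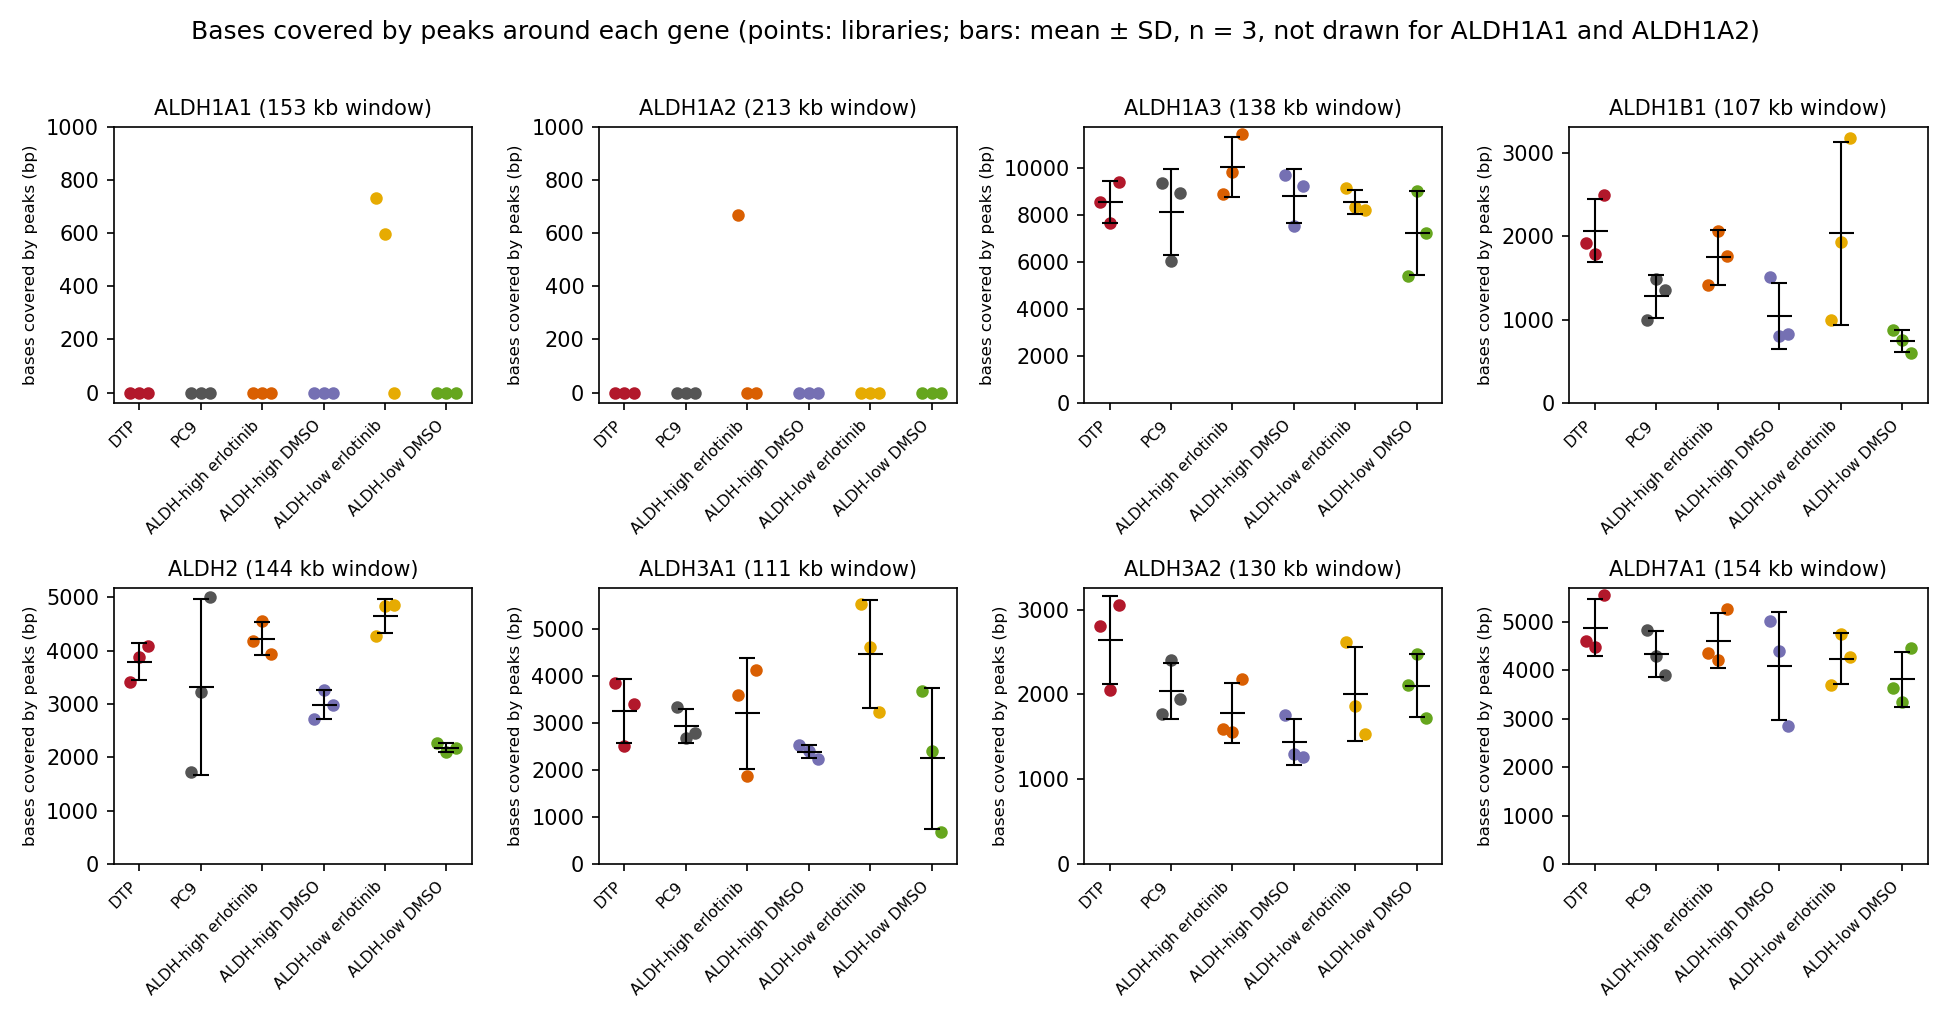
Bases under peaks within 50 kb of each gene, in bp, 1 point per library by group, with the mean and SD of 3 libraries as bars (no bars for ALDH1A1 and ALDH1A2, which had a peak in at most 2 libraries). At ALDH2 all sorted erlotinib libraries, 3939 to 4844 bp, lie above all sorted DMSO libraries, 2098 to 3263 bp. DTP libraries, 3410 to 4082 bp, and PC9 libraries, 1725 to 5004 bp, overlap there. At ALDH7A1 the groups overlap in every comparison.

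The genes ALDH3A1 and ALDH3A2, near each other on chromosome 17, differed at their starts. In RefSeq order SLC47A2 lies between them. ALDH3A2 encodes the fatty aldehyde dehydrogenase that is deficient in Sjögren-Larsson syndrome, and its start region (19550946 to 19552912) was in all 18 libraries at percentiles from 72.9 to 94.8. Its percentiles in lists of equal size were 88.4, 88.9 and 93.6 in ALDH-low erlotinib libraries, above 81.9, 81.2 and 80.9 in ALDH-low DMSO libraries. In ALDH-high cells the 2 treatments overlapped. The 3' region of ALDH1A3 went the other way in ALDH-low cells, at 62.1, 55.7 and 66.5 with erlotinib and 80.9, 74.8 and 74.8 with DMSO. Together with the ALDH1A3 start, 2 of 9 members ranked higher and 1 lower with erlotinib in ALDH-low cells, against 13.6% and 13% of all regions in these lists.

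ALDH3A1 encodes a cytosolic enzyme for aromatic and medium-chain aldehydes that is abundant in cornea and found in many lung tumours. The only region at an end of its gene body (19651038 to 19652438) was called in ALDH-low erlotinib libraries a and b, at percentiles 45.3 and 24.8, and in no other library. Its strongest region (19654901 to 19657727) lay 2.9 kb beyond that end and was in all 18 libraries. Cut to equal length, the lists had it at 51.5, 71.4 and 68.1 in ALDH-high erlotinib libraries, above both the ALDH-high DMSO libraries (41.3, 48.7 and 34.9) and the ALDH-low erlotinib libraries (30.3, 36.1 and 23.5). ALDH-low DMSO libraries had it at 67.9, 67.7 and 4.83, which overlaps every other sorted group. Between the fractions after erlotinib, 1 of 9 members ranked higher and 1 lower in ALDH-high without overlap, against 8.31% and 8.37% of regions. Covered bases at ALDH3A1 were 1515 bp more with erlotinib over both fractions, with an exact permutation p of 0.04 and an adjusted p of 0.115, which did not pass. Without ALDH-high erlotinib library b it did (1847 bp, exact permutation, adjusted p = 0.0449).

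A region between ALDH3A1 and ALDH3A2 (19630941 to 19632184) was the member whose calls differed most between erlotinib and DMSO libraries. Since SLC47A2 also lies between these genes, the region need not belong to either ALDH gene. It was in all 3 DTP libraries at percentiles 5.15, 45.6 and 20.9 and in no PC9 library. In sorted cells it was in ALDH-high erlotinib libraries a and c at 42.3 and 28.6, and in no ALDH-high DMSO library. It was in ALDH-low erlotinib libraries a, b and c at 15.1, 31.2 and 25.7, and in no ALDH-low DMSO library. Thus 8 of 9 libraries from cells given erlotinib held it and 0 of 9 from cells given DMSO. This count pools unsorted and sorted libraries, with 8 days and 12 h of erlotinib. The region was named because it met the gained rule, and the share of all regions with this pattern was not counted. In sorted cells the exact conditional permutation p was 0.02 and the adjusted p 0.0843 over 13213 testable regions, of which none passed. Where only the 6480 regions able to reach a p under 0.05 entered the adjustment, an alternative chosen after seeing the data, its adjusted p was 0.0413, and 48.4% of those regions passed. It was 1 of 4 testable members and the only one higher at an unadjusted p under 0.05, against 21% of testable regions, while 0 members and 2.72% of regions were lower. In lists of equal size, where its weak peaks dropped out, it was no longer called.

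ALDH7A1 encodes antiquitin, an enzyme of lysine breakdown that is lost in pyridoxine-dependent epilepsy. Its start region (chromosome 5, 125929586 to 125931668) was the strongest of the 40, in all 18 libraries at percentiles from 83.9 to 98.4. It stood in lists of equal size at 89.0, 90.5 and 79.2 in DTP libraries, below 96.0, 97.6 and 95.7 in PC9 libraries. One other member, the 3' region of ALDH1A3, ranked lower in all DTP libraries, at 43.7, 52.7 and 51.6, against 70.7, 62.7 and 54.0 in PC9 libraries. These were 2 of the 8 members in all 6 equal lists, against 17.3% of all such regions, and 0 members ranked higher, against 17.6%. A region 4.9 kb upstream of ALDH7A1 (125935900 to 125937647) was also in all 18 libraries, at percentiles from 63.6 to 93.9.

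The outer regions of the ALDH7A1 window were called in one and not the other of DTP and PC9 cells. The region 12.8 kb downstream (125863400 to 125864203) was gained in DTP, with percentiles 61.3, 58.5 and 53.9 and no peak in PC9. It was also in ALDH-high erlotinib libraries a and c at 32.2 and 9.83 and in ALDH-low erlotinib library b at 10.1, and in no sorted DMSO library. The region 28.5 kb upstream (125959496 to 125960548) was lost, with no peak in any DTP library, against percentiles 46.2, 32.9 and 34.7 in PC9 libraries. It was likewise lost with erlotinib in ALDH-low cells, with no peak in ALDH-low erlotinib libraries and percentiles 37.8, 28.7 and 2.88 in ALDH-low DMSO libraries. In ALDH-high cells it was in 2 of 3 libraries with erlotinib (40.7 and 59.6) and 2 of 3 with DMSO (8.50 and 20.6). Over both fractions its exact conditional permutation p was 0.26 (adjusted p = 0.427).

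Altogether 3 members were gained in DTP and 1 was lost, of 31 held by at least 1 DTP or PC9 library. Gained means called in every DTP library and no PC9 library, and lost means the reverse. Of all 65904 regions 6.75% were gained and 3.68% lost, so the members stood near the background. Besides the 2 gains described, a region in the ALDH3A2 gene body (19580114 to 19580659) was called in DTP alone, at percentiles 46.6, 24.5 and 22.1, and in none of the other 15 libraries. Only 1 member was gained and 0 were lost in lists of equal size. For 3 against 3 libraries the smallest exact permutation p is 0.1. By covered bases ALDH1B1 alone separated, with 1919, 1782 and 2496 bp in DTP libraries, against 995, 1485 and 1354 bp in PC9 libraries (exact permutation p = 0.1). Of the genome's tiles 25.8% were higher and 8.41% lower in all DTP libraries, so 1 of 8 loci higher and 0 lower is no more than that background.

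With erlotinib in ALDH-low cells 1 member was gained, between ALDH3A1 and ALDH3A2, and 1 was lost, upstream of ALDH7A1, of 29 held by at least 1 library, against 6.82% gained and 0.887% lost of all regions. In ALDH-high cells 0 of 25 were gained and 0 lost, against 4.52% and 0.998%. Whether the fractions differ in this was not tested for single regions. By covered bases 1 locus (ALDH2) was higher in all ALDH-high erlotinib libraries, against 25.7% of tiles (0 loci and 2.08% of tiles lower), and 2 (ALDH1B1 and ALDH2) were higher in all ALDH-low erlotinib libraries, against 35.3% (0 loci and 1.53% lower).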

How the data were processed

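Chromatin accessibility was measured in 18 ATAC-seq libraries, each with 1 peak list in hg19 coordinates and a score per peak, a number from the authors' peak caller that was deposited without a stated scale and was 70 or more in each list. Per the submitters' processing notes, BWA, MACS 1.4.2 and hg19 were used. No source used here gives the trimming, duplicate removal, transposase shift, calling parameters or later filters, each of which could change which weak peaks were called. Read depth is unknown. The labels do not say whether libraries a, b and c came from separate cultures, so p-values measure only the spread between these libraries, which may be technical.

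The lists' peaks (chromosomes 1 to 22 and X) were merged where they shared at least 1 bp. A library held a region if any of its peaks fell in it, and the region took the percentile of its best peak. Gene bodies were given with the rule to 1 kb, and strands, neighbours and promoters came from RefSeq (GRCh38.p14), whose coordinates were never joined with hg19. Strands were found for 6 genes, and for ALDH2 and ALDH3A1 both ends of the gene body were considered. Markers of PC9 were not checked, since hg19 positions of other genes were not used here.

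Groups of 3 were compared by presence in all libraries of one group and none of the other. In the 12 sorted libraries treatment labels were permuted within fractions, or fraction labels within treatments (400 assignments, smallest two-sided p 0.005), with Benjamini-Hochberg adjustment over all testable regions (smallest attainable p under 0.1), or over all 150 kb tiles with the 8 loci. All p-values are two-sided. Single percentiles were not tested. Regions named by rule were those at a gene start (within 1 kb; either end where the strand was not found), the top region of each locus by mean percentile, and those gained, lost or at an unadjusted p under 0.05 in sorted libraries. Other regions with coordinates (at ALDH1A1 the weaker region, at ALDH1A3 the 3' end and 41.1 kb downstream, at ALDH1B1 7.8 kb upstream, at ALDH2 a pair beyond the gene, at ALDH7A1 4.9 kb upstream) were chosen after their values were seen. The members and lists were chosen with earlier results of these data known.

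Alternatives were a score of at least 100, lists of equal size, at least 50% of a region covered, windows of 25 and 100 kb, a replicate block and leaving out each library once. Bases covered within a region, settings for the counts of separated loci and for the ALDH2 fraction difference, percentiles in equal lists and the narrower adjustment were added after seeing the data. The procedure was tested on simulated data, with Python 3.11.15, numpy 2.4.6 and pandas 2.3.3.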

Additional observations from a re-analysis of the deposited data

Results flagged for a closer look

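At ALDH2 the erlotinib effect on bases under peaks was 1233 bp in ALDH-high and 2469 bp in ALDH-low cells. The difference of -1236 bp did not pass adjustment (exact permutation p = 0.01, adjusted p = 1.0). Of all tiles, 2.83% had a difference in that direction at an unadjusted p under 0.05. In lists of equal size the difference between the fractions was -2094 bp. There the covered bases at ALDH2 fell with erlotinib in ALDH-high cells and rose in ALDH-low cells, so the ALDH-high gain was not kept. With any 1 sorted library left out the difference was -1094 to -1422 bp.

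At the ALDH1A3 start region the score percentile in lists of equal size moved in opposite directions in the fractions. It was 30.6 with erlotinib and 59.5 with DMSO in ALDH-high cells, and 55.1 with erlotinib and 37.1 with DMSO in ALDH-low cells (means of 3 libraries). The effect in ALDH-high minus that in ALDH-low was -47.0 points, and this difference was not tested. List length differed between the groups before the lists were cut to equal size, and its part in the result was not tested.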

How the results depend on the processing

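With scores of at least 100, DTP against PC9 had 1 member gained, ALDH-low erlotinib against ALDH-low DMSO 2 gained and 0 lost, ALDH-high against ALDH-low after erlotinib 1 lost, and erlotinib against DMSO over both fractions 0 higher. ALDH2 no longer passed the exact permutation test (1137 bp, adjusted p = 0.147). Differences reversed for erlotinib at ALDH3A2 (-68.3 bp), for ALDH-high minus ALDH-low at ALDH1B1 (-50.7 bp), ALDH2 (-135 bp) and ALDH7A1 (-168 bp), and for DTP minus PC9 at ALDH1A3 (-324 bp). In lists of equal size the counts were 1 gained and 0 lost in DTP, 0 gained in ALDH-low erlotinib, 1 lost in ALDH-high erlotinib against ALDH-low erlotinib, and 0 higher over both fractions. ALDH2 (645 bp) and ALDH1B1 (399 bp) no longer passed, and differences reversed at ALDH3A2 (-183 bp, erlotinib), ALDH1B1 (-162 bp), ALDH2 (-423 bp) and ALDH7A1 (-171 bp, ALDH-high minus ALDH-low) and ALDH2 (-60.3 bp, DTP minus PC9). None of the reversed differences had passed as deposited, and causes were not tested. With 50% of a region covered, or within 25 kb, 0 members were lost in DTP and 0 in ALDH-low erlotinib, since the one lost region lies 28.5 kb from ALDH7A1 and is only partly covered. Within 100 kb, 5 were gained in DTP.

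Same-letter libraries did not deviate together (correlations from -0.00791 to 0.00859), so letters were used here only to name libraries. This does not show that same-letter libraries were unpaired. With a replicate block, 0 members were higher with erlotinib, and ALDH2 (1851 bp, p = 0.0313, the smallest exact p it allows, adjusted p = 0.128) and ALDH1B1 (994 bp, exact p = 0.0625, adjusted p = 0.175) did not pass.

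Leaving out 1 library at a time eases the rule, which then asks for fewer libraries. Shares of all regions gained or lost were not counted with a library left out or under the other alternatives. Counts went up to 2 members lost in DTP (1 to 2, without PC9 b). In ALDH-low erlotinib they were 1 to 3 gained (2 without ALDH-low erlotinib a or ALDH-low DMSO b, 3 without ALDH-low erlotinib c or ALDH-low DMSO c) and 1 to 2 lost (without ALDH-low DMSO c). In ALDH-high erlotinib they were 0 to 2 gained (1 without ALDH-high erlotinib a, 2 without ALDH-high erlotinib b or ALDH-high DMSO a). Between fractions they were 0 to 1 gained (without ALDH-low DMSO a) and 0 to 1 lost (without ALDH-low DMSO c) under DMSO, and 0 to 1 gained (without ALDH-high erlotinib a or b) and 0 to 2 lost (without ALDH-low erlotinib c) after erlotinib. Over both fractions 1 to 3 were higher (2 without ALDH-low erlotinib a or ALDH-low DMSO b, 3 without ALDH-high DMSO a). The erlotinib difference ranged from 708 to 1253 bp at ALDH1B1, from 1123 to 1870 bp at ALDH3A1 and from -32.9 bp (without ALDH-low erlotinib a) to 239 bp at ALDH3A2, and at ALDH2 it passed each time. DTP minus PC9 ranged from -318 bp (without PC9 a) to 1322 bp at ALDH2 and from -616 bp (without PC9 b; -9.67 bp without DTP c) to 1054 bp at ALDH1A3. ALDH-high minus ALDH-low at ALDH1B1 ranged from -253 bp (without ALDH-low erlotinib a) to 292 bp.

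Counts of loci whose groups do not overlap were followed through the same settings after seeing the data. The shares of all tiles were not counted under these settings, so the counts cannot be read against a background. Higher in all DTP libraries were 2 loci in lists of equal size, 3 within 25 kb, 5 within 100 kb and 1 to 3 with a library left out (2 without any PC9 library, 3 without DTP b). Higher with erlotinib in ALDH-high were 0 with scores of at least 100 and in lists of equal size, 2 within 100 kb and 1 to 3 with a library left out (2 without ALDH-high erlotinib b, 3 without ALDH-high erlotinib a or ALDH-high DMSO a), and in ALDH-low 2 to 4 (4 without ALDH-low erlotinib c). For ALDH-high against ALDH-low under DMSO 0 were higher with scores of at least 100 and in lists of equal size, 2 were higher and 1 lower with the replicate block, and 1 to 2 were higher (2 without ALDH-high DMSO b or ALDH-low DMSO a or b) and 0 to 1 lower (1 without ALDH-high DMSO a or ALDH-low DMSO c) with a library left out. After erlotinib 1 was lower with scores of at least 100 and with the replicate block, 2 were higher and 1 lower within 100 kb, and 0 to 1 were higher (1 without ALDH-high erlotinib a or ALDH-low erlotinib a) and 0 to 2 lower (1 without ALDH-high erlotinib b or ALDH-low erlotinib a, 2 without ALDH-low erlotinib c) with a library left out. Read depth is unknown, and only 4 members could be tested for presence in sorted cells.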
